A study of Mus musculus with 20 samples.

Results

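The core circadian clock genes of the mouse liver are described here over 20 livers, 1 array each. The members are Arntl, Clock, Npas2, Cry1, Per1, Per2, Nr1d1, Nr1d2, Dbp and Tef, 10 of the 22328 named genes on the array. They were chosen by name: every probe that the array file assigns to one of these genes was taken, 13 of 55681 probes. Their levels were used to compare where the livers of each group stood along the daily cycle.

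The 4 groups of 5 ovariectomized mice crossed the genotype at estrogen receptor alpha (ERa) with a single gavage. They were ERa-/- mice (null) given 1 mg/kg of estradiol (E2, an estrogen that binds this receptor), null mice given placebo, ERa+/+ mice (wild type) given E2 at the same dose, and wild-type mice given placebo. The placebo was castor oil with 5% ethanol. All 20 animals, controls included, were ovariectomized at 4 weeks of age, gavaged at 9 weeks and killed 4 hours later under anaesthesia, with ketamine at 100 mg/kg and 10 mg/kg of xylazine. Wild types came from the parents of the nulls, and the mice lived 5 to a cage on 12 hours of light and 12 hours of dark. The clock time of gavage or death, the cage of each animal and the part of Esr1 deleted in nulls are not given in the sources used here. A level below is the log2 intensity of a probe relative to the 75th percentile of its array, so it compares livers for the same probe and not probes with each other.

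The clock of a liver cell is a feedback loop that runs once a day. The proteins of Arntl (BMAL1) and Clock pair up, bind DNA at E-boxes and switch on the Per and Cry genes, whose proteins then block that pair. The same pair switches on Nr1d1 and Nr1d2 (REV-ERB alpha and beta), receptors that bind ROR elements and shut Arntl down. Dbp and Tef encode output factors that bind D-boxes in genes of liver metabolism. In mouse liver Arntl therefore runs nearly opposite in phase to Nr1d1 and Dbp, Per genes peak after Dbp, toward dusk, and Cry1 comes later still. A clock time cannot be read from single levels, but genes of opposite phase can be set side by side in each liver.

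The E-box and the ROR element of this loop were looked for in the RefSeq promoters of the members. The stretch searched was 250 bases before to 50 after each start, on both strands (build GRCm38.p6). A match alone does not show that the loop drives the gene. Of the members, 9 had 14 such promoters in the table, and Per2 is named only. The E-box CACGTG stood in 4 of the 14, those of Per1, Cry1 and Tef, against 7.15% of all 32851 promoters. The ROR element TAGGTCA stood in 1 of the 14, the second start of Arntl, against 2.61% of all promoters. The D-box TTATGTAA (0.938% of all promoters), its form TTANGTAA (2.32%), which holds the first, the CRE TGACGTCA (1.79%) and the palindromic estrogen response element (0.0700%) were in 0 of the 14. No match says only that these letters are not in this window. The stretches that hold a match are shown 5′ to 3′ on the strand of the gene, with the match in capitals. The Arntl stretch is chr7:113207530-113207558, 30 bases after the start. The E-boxes are in chr11:69098763-69098808 (166 bases before a Per1 start), chr10:85185089-85185134 (minus strand, 60 before Cry1), chr15:81802526-81802571 and chr15:81811256-81811301 (127 and 138 before the starts of Tef), and the other stretches are on the plus strand.
Arntl, ROR element: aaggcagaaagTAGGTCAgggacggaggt
Per1, E-box: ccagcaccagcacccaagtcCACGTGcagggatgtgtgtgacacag
Cry1, E-box: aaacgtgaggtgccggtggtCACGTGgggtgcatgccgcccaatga
Tef first start, E-box: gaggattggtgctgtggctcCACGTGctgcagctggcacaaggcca
Tef second start, E-box: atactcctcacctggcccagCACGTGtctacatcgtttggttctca

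The arrays lay on 4 slides of 6, 6, 5 and 3 arrays, and no slide held 1 group alone. Between 51.6% and 70.0% of spots were well above background, the lowest in null placebo animal 1 and the highest in wild-type E2 animal 1. The targeted gene checked the labels: Esr1 averaged -1.63 ± 0.31 in null E2 livers and -1.61 ± 0.48 in null placebo livers, against 0.60 ± 0.41 in wild-type E2 livers and 0.39 ± 0.25 in wild-type placebo livers (log2 level, SD, n = 5 each). The null level was lower by -2.23 under E2 and -2.00 under placebo (limma adjusted p of 1.81e-05 and 0.000482). Hepatocyte markers (8 of 8 measured, among them albumin) had a mean level of 8.99 to 9.58 in every liver. Red cell markers (2 of 4 measured) had a mean level of 5.04 to 5.35 in null E2 livers, 5.07 to 5.68 in null placebo livers and 4.92 to 5.30 in wild-type E2 livers, all above the 4.55 to 4.81 of wild-type placebo livers. In the lists of Kupffer, endothelial, stellate, bile duct, T and NK, B, neutrophil, fat and pancreas markers limma called 0 genes in each comparison, with 0 or 1 a list at an unadjusted p under 0.05. A piece of liver holds several cell types, and fewer cells of a type cannot be told apart from less RNA per cell.

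Arntl, the activator without which the loop stops, had group means that lay within 1 SD of each other. Its levels were -0.49, -1.63, -0.93, -0.54 and -0.39 in null E2 animals 1 to 5, and -0.28, -1.72, -0.82, -1.08 and -0.62 in null placebo animals 1 to 5. They were -1.06, -1.33, -0.60, -0.99 and -0.45 in wild-type E2 animals 1 to 5, against -0.46, -0.94, -0.84, -0.92 and -1.49 in wild-type placebo animals 1 to 5. The lowest and the highest liver were both in the null placebo group, and the other groups lay within its range. Group means were -0.80 ± 0.51 (null E2), -0.90 ± 0.54 (null placebo), -0.89 ± 0.35 (wild-type E2) and -0.93 ± 0.37 (wild-type placebo) (SD, n = 5 each). E2 minus placebo was 0.11 in nulls (95% interval -0.46 to 0.67) and 0.04 in wild types (-0.52 to 0.61). Null minus wild type was 0.09 under E2 (-0.47 to 0.66) and 0.03 under placebo (-0.54 to 0.59). The probe was on chromosome 7, 120457261 to 120457320 (mm9, as for all probes).

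Clock, the partner of Arntl and a gene known for a shallow rhythm, varied little. It averaged 0.36 ± 0.10 in null E2, 0.40 ± 0.24 in null placebo, 0.28 ± 0.21 in wild-type E2 and 0.21 ± 0.17 in wild-type placebo livers (chromosome 5, 76641377 to 76641436). The widest difference was null minus wild type under placebo, at 0.18 (-0.07 to 0.44, limma adjusted p = 0.648). Its highest level among the 20 livers was 0.75 in null placebo animal 1, the liver that was also highest for Arntl. Npas2, which can replace Clock in the pair, was too dim for the test (chromosome 1, 39418941 to 39419000). It was well above background on 0 of 5 null E2, 0 of 5 null placebo, 2 of 5 wild-type E2 and 2 of 5 wild-type placebo arrays. Its measured means were -5.45 ± 0.74, -6.06 ± 0.87, -4.92 ± 0.43 and -4.92 ± 0.39 in that order of groups, values at the floor of the scan, and no fold is given.

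Cry1, a repressor whose protein blocks the activator pair, ranged more widely over the livers than the Per genes, the other repressors of that pair, but it was dim. Among genes of like level, the percentile of its spread within groups was 72.6, between Per1 at 91.3 and Per2 at 62.7. Cry1 averaged -3.19 ± 0.22 in null E2, -3.42 ± 0.68 in null placebo, -3.60 ± 0.60 in wild-type E2 and -3.60 ± 0.55 in wild-type placebo livers (chromosome 10, 84594731 to 84594790). The extremes over the 20 livers were both in the null placebo group, -2.60 in animal 1 and -4.46 in animal 2. It was well above background on 4 of 5 null E2 and 3 of 5 wild-type E2 arrays and on every placebo array. Null minus wild type under E2 was 0.41 (-0.27 to 1.08, limma adjusted p = 0.714), and the other differences were smaller.

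Per1, a repressor that glucocorticoids also switch on, was higher in null than in wild-type livers under placebo without passing the test. Its levels were 4.53, 3.99, 4.22, 4.15 and 4.24 in null E2 animals 1 to 5, and 4.03, 4.21, 4.33, 4.79 and 4.43 in null placebo animals 1 to 5. They were 4.28, 4.12, 3.90, 3.41 and 3.77 in wild-type E2 animals 1 to 5, against 3.99, 4.40, 3.54, 3.18 and 3.80 in wild-type placebo animals 1 to 5. The null placebo livers lay above 4 of the 5 wild-type placebo livers, and wild-type placebo animal 2 fell among them. Null minus wild type was 0.58 under placebo (0.15 to 1.00, unadjusted p = 0.0102, limma adjusted p = 0.329), and 0.33 under E2 (-0.09 to 0.75, adjusted p = 0.619). Within slides the placebo difference was -0.28 on slide 1, 1.15 on slide 2 and 0.95 on slide 3. The first Per1 probe was on chromosome 11, 68923364 to 68923423, and a second one at 68919895 to 68919954 was dim. The second was well above background on 1 of 5 null E2, 2 of 5 null placebo, 4 of 5 wild-type E2 and 1 of 5 wild-type placebo arrays, and it was kept only through wild-type E2. Its measured levels averaged -4.36 ± 0.48, -4.10 ± 0.41, -3.92 ± 0.34 and -5.16 ± 0.82 in these groups (SD, n = 5 each), and no size of a difference is given for it. It passed in none of the 5 comparisons, and the lowest limma adjusted p over 30961 probes was 0.228. By the first probe E2 minus placebo was -0.13 in nulls (-0.56 to 0.29) and 0.11 in wild types (-0.31 to 0.54).

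Per2, the other Per repressor measured here, was higher in nulls than in wild types after E2, again without passing. Its levels were 1.27, 1.01, 0.67, 0.99 and 0.87 in null E2 animals 1 to 5, and 0.43, 0.27, 0.80, 1.02 and 0.80 in null placebo animals 1 to 5. They were 0.28, 0.25, 0.45, 0.52 and 0.67 in wild-type E2 animals 1 to 5, against 0.58, 0.80, 0.58, 0.46 and 0.78 in wild-type placebo animals 1 to 5. Under E2 the groups met at a single point, null animal 3 and wild-type animal 5, and under placebo they overlapped. Null minus wild type was 0.53 under E2 (0.24 to 0.82, unadjusted p = 0.00113, limma adjusted p = 0.133), the smallest adjusted p of any member, and 0.03 under placebo (-0.26 to 0.31). E2 minus placebo was 0.30 in nulls (0.01 to 0.58, limma adjusted p = 0.820) and -0.21 in wild types (-0.50 to 0.08, adjusted p = 0.701). The difference between these E2 effects, null minus wild type, was 0.50 (0.10 to 0.91, limma adjusted p = 0.614). On slides 1, 2 and 4 the null minus wild type value under E2 was 0.88, 0.41 and 0.34. With only animals whose label number was 750 or above (the labels do not say what the numbers mark) it was 0.30, and there the E2 effect in nulls was -0.07 and the difference of the effects 0.03. The probe was on chromosome 1, 93313046 to 93313105.

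Nr1d1, the repressor of Arntl, had the highest group mean in wild-type placebo livers. Its levels were -1.07, 0.01, -0.34, -0.40 and -0.49 in null E2 animals 1 to 5, and -1.66, 0.42, -0.55, -0.97 and -0.46 in null placebo animals 1 to 5. They were -0.28, -0.23, -1.30, -0.22 and -0.46 in wild-type E2 animals 1 to 5, against -0.22, -0.35, 0.27, 0.41 and 0.78 in wild-type placebo animals 1 to 5. All wild-type placebo livers but animal 2 were above every wild-type E2 liver. Animal 1 was so only narrowly, at -0.2231 against -0.2247 in wild-type E2 animal 4. The other groups reached up to 0.42 and overlapped with the wild-type placebo livers. E2 minus placebo in wild types was -0.68 (-1.35 to -0.0078, unadjusted p = 0.0476, limma adjusted p = 0.596). Null minus wild type under placebo was -0.82 (-1.49 to -0.15, unadjusted p = 0.0188, adjusted p = 0.370), and under E2 it was 0.04 (-0.63 to 0.71). The difference of the E2 effects, null minus wild type, was 0.87 (-0.08 to 1.81, limma adjusted p = 0.706). The wild-type E2 and the placebo genotype comparison share the wild-type placebo livers, so they are not independent. Within slides the wild-type E2 value was 0.12, -1.20 and -0.24 on slides 1, 2 and 4, and the placebo genotype value was -0.27, -0.96 and -1.24 on slides 1, 2 and 3. The probe was on chromosome 11, 98630526 to 98631028.

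Nr1d2, the close relative of Nr1d1, had the smallest spread of the 9 members tested. It averaged 2.44 ± 0.14 in null E2, 2.60 ± 0.13 in null placebo, 2.57 ± 0.11 in wild-type E2 and 2.58 ± 0.11 in wild-type placebo livers (chromosome 14, 19036568 to 19036627). E2 minus placebo was -0.16 in nulls (-0.34 to 0.02, limma adjusted p = 0.824) and -0.02 in wild types (-0.20 to 0.16). Its second probe, at 19037253 to 19037312, differed by -0.08 and -0.05 in the same comparisons.

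**Figure D1:**
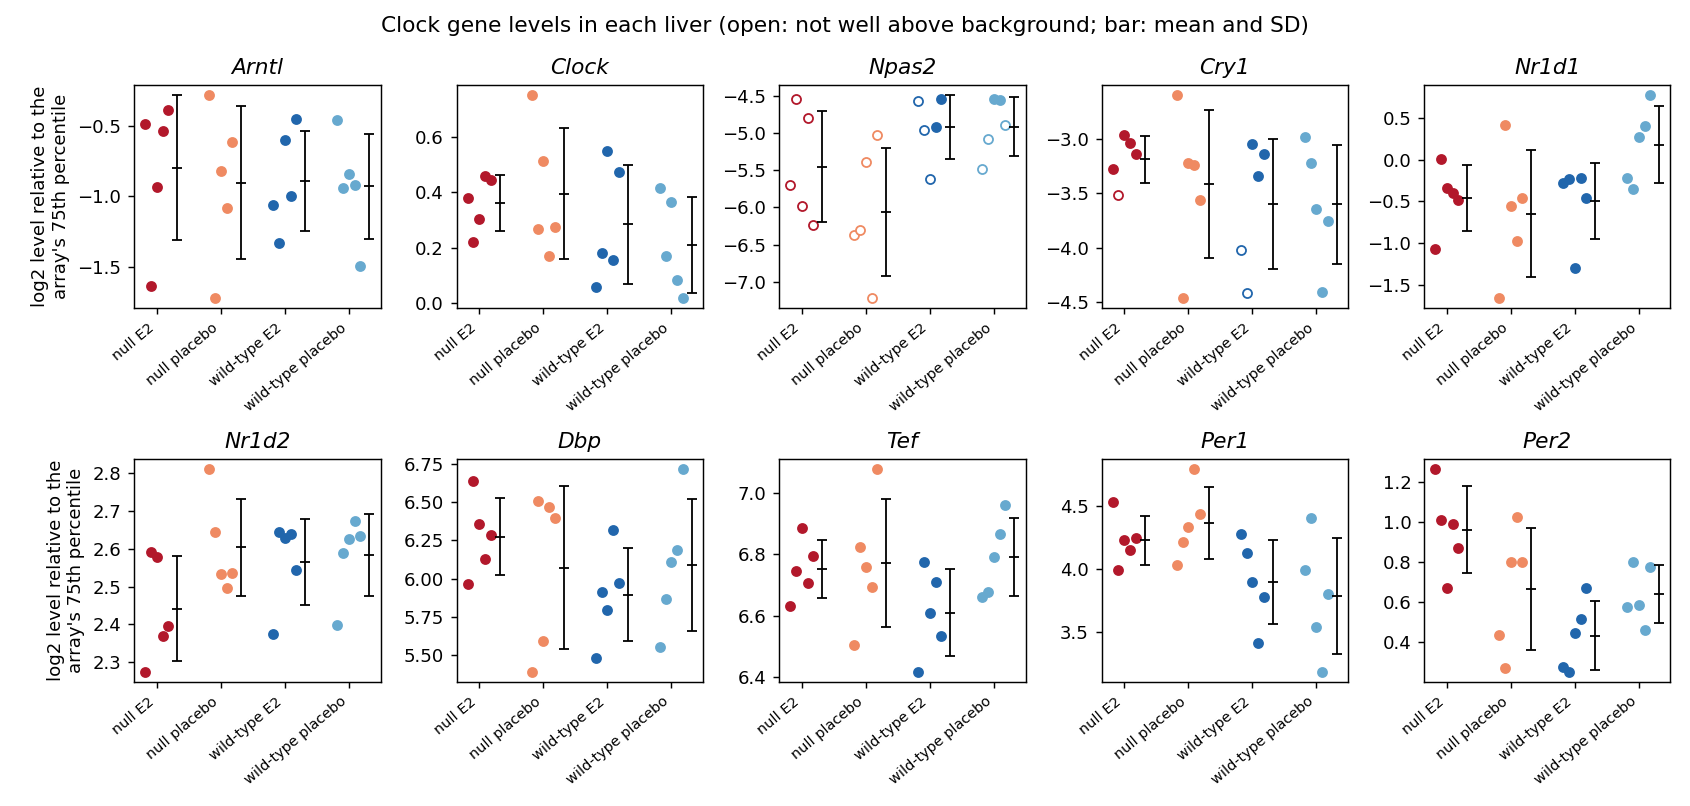
Log2 level (relative to the 75th percentile of the array) of each of the 10 members in every liver, 1 panel a gene with its own scale, groups from null E2 to wild-type placebo; points are livers, open points were not well above background, and bars are the mean ± SD of 5. For Arntl the group means lie between -0.93 and -0.80 while single livers run from -1.72 to -0.28.

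The output factors Dbp and Tef also overlapped between all groups. Dbp was 5.96, 6.64, 6.36, 6.13 and 6.29 in null E2 animals 1 to 5, and 5.39, 6.51, 5.60, 6.47 and 6.39 in null placebo animals 1 to 5. It was 5.48, 5.91, 5.80, 6.32 and 5.97 in wild-type E2 animals 1 to 5, against 5.55, 5.87, 6.11, 6.19 and 6.72 in wild-type placebo animals 1 to 5. The lowest liver was null placebo animal 1 and the highest wild-type placebo animal 5. Null minus wild type was 0.38 under E2 (-0.12 to 0.88, limma adjusted p = 0.632) and -0.02 under placebo (-0.51 to 0.48). E2 minus placebo was 0.20 in nulls (-0.30 to 0.70) and -0.19 in wild types (-0.69 to 0.31). The second Dbp probe gave 0.34 and -0.20 for the genotype under E2 and placebo, and 0.25 and -0.29 for E2 in nulls and wild types. The Dbp probes were on chromosome 7, 52965461 to 52965520 and 52965322 to 52965381. Tef averaged 6.75 ± 0.09 in null E2, 6.77 ± 0.21 in null placebo, 6.61 ± 0.14 in wild-type E2 and 6.79 ± 0.13 in wild-type placebo livers (chromosome 15, 81657221 to 81657280). E2 minus placebo was -0.18 in wild types (-0.39 to 0.03, limma adjusted p = 0.648) and -0.02 in nulls (-0.23 to 0.19).

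The comparisons between groups thus called none of the members. With limma, 0 of the 9 members tested passed an adjusted p of 0.05 for E2 in nulls (0.00455% of all 21998 genes passed), for E2 in wild types (0.318%) or for the difference of these effects (0.164%). The count was also 0 of 9 for null against wild type under E2 (0.464%) and under placebo (0.0727%). At an unadjusted p under 0.05 the members counted 1 for E2 in nulls (6.06% of all genes), 1 for E2 in wild types (8.28%) and 1 for the difference (7.39%). They counted 1 for the genotype under E2 (9.63%) and 2 under placebo (10.1%), shares that so few members cannot set apart from those of all genes. The median difference over the 9 members was 0.11 for E2 in nulls, -0.02 for E2 in wild types, 0.14 for the genotype under E2 and 0.03 under placebo, against medians over all genes of -0.01, 0.002, -0.002 and 0.01. For each of the members tested the groups overlapped in all 4 comparisons of a pair of groups. No such share over all genes is given here, so the overlap does not set the members apart. Between pairs of groups the intervals of Arntl, Dbp and Cry1 all crossed 0 and reached 0.67, 0.88 and 1.08. Sizable differences in these members could thus not be told from 0 with 5 animals a group. For Nr1d1 the interval of null minus wild type under placebo was -1.49 to -0.15, and that of E2 in wild types -1.35 to -0.0078. Both left out 0 before adjustment but did not pass it (limma adjusted p of 0.370 and 0.596). Its intervals for the other pairs of groups crossed 0.

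**Figure D2:**
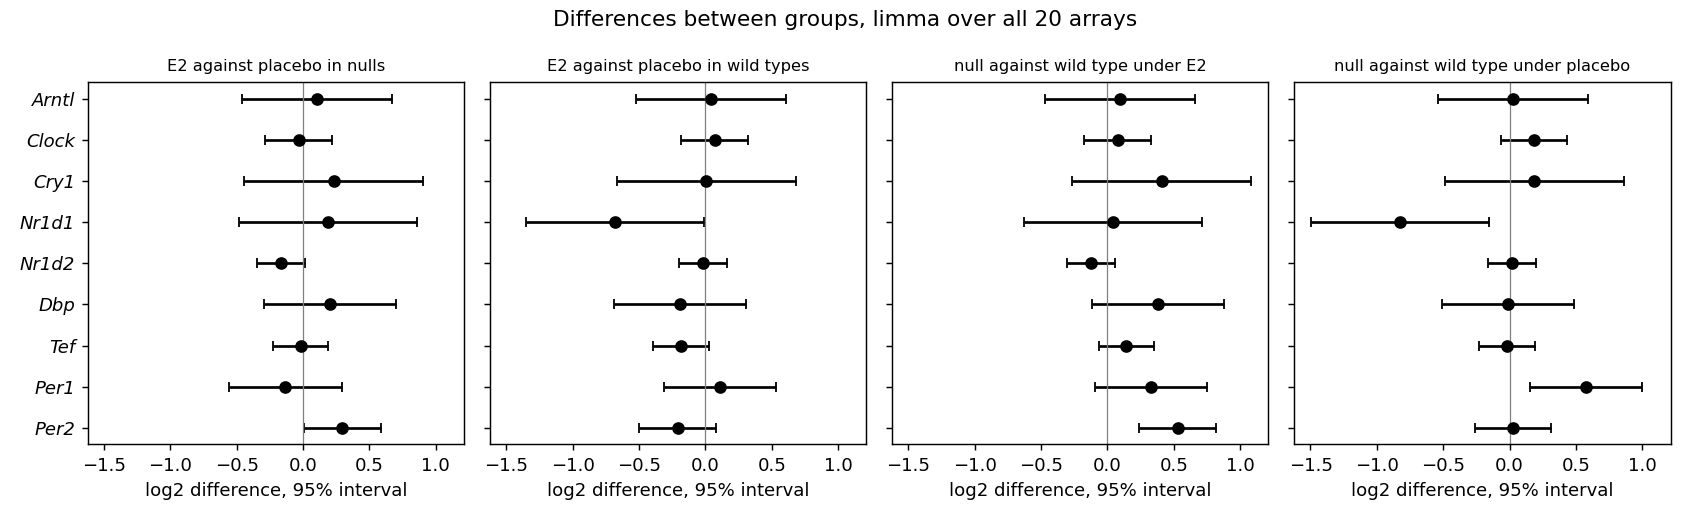
Log2 difference of each tested member (point) with its 95% interval (bar) from limma over 20 arrays, for E2 minus placebo in nulls and in wild types and for null minus wild type under E2 and under placebo. Most intervals cross 0, and those that do not (Nr1d1 at -0.68 and -0.82, Per1 at 0.58, Per2 at 0.30 and 0.53) did not pass adjustment over all genes.

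Livers of the same group differed widely in several members. The residual SD of the fit, which is the spread of livers of the same group, was 0.54 for Nr1d1, 0.54 for Cry1, 0.45 for Arntl, 0.40 for Dbp and 0.33 for Per1, against a median of 0.23 over all genes. Set among the 1000 genes of nearest level, the percentile of the residual SD was 96.0 for Nr1d1, 95 for Dbp, 92.6 for Arntl and 91.3 for Per1. It was 72.6 for Cry1, 62.7 for Per2, 57.2 for Tef, 43.1 for Clock and 18 for Nr1d2.

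Livers with high Arntl had high Clock and Cry1 and low Nr1d1 and Dbp. Over the 20 livers Arntl correlated with Clock at a Pearson r of 0.70 and a Spearman rho of 0.77 (permutation p of 0.0049 and 0.00081, both adjusted over 9 relations). With Cry1 the r was 0.68 and the rho 0.70 (permutation p of 0.0049 and 0.00481, adjusted). With Nr1d1 they were -0.64 and -0.63 (permutation p of 0.00606 and 0.0114, adjusted), and with Dbp -0.56 and -0.53 (permutation p of 0.0238 and 0.0391, adjusted). The r with Tef was -0.32, with Nr1d2 -0.31, with Per2 0.21, with Npas2 -0.12 and with Per1 0.04, and the adjusted permutation p-values of these 5 were 0.286 or more. The unadjusted permutation p of r was 0.00062 for Clock, 0.00109 for Cry1, 0.00202 for Nr1d1 and 0.0106 for Dbp.

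The relations were also present among livers of the same group. After the group mean was taken from each level, r with Arntl was 0.74 for Clock, 0.69 for Cry1, -0.74 for Nr1d1 and -0.64 for Dbp (adjusted permutation p of 0.00468, 0.00537, 0.00537 and 0.0144, shuffled within groups). Without null placebo animal 2 and null E2 animal 2, the livers farthest from the median of Arntl, the r over livers was 0.82, 0.66, -0.60 and -0.41, so the relation with Dbp was weaker without them. With slide means taken out it was 0.71, 0.70, -0.68 and -0.60. Within slide 1 (6 arrays) r was 0.69, 0.92, -0.96 and -0.78, and within slide 2 (6 arrays) it was 0.72, 0.55, -0.51 and 0.33, so the relation with Dbp did not hold within slide 2. Slides 3 and 4 held 5 and 3 arrays, and no r was computed over fewer than 6. All genes of a liver share its array and scaling, and when arrays were scaled on their median instead the r was 0.76, 0.78, -0.34 and -0.03. The array of wild-type E2 animal 1 had its median -2.68 below its 75th percentile on the log2 scale, against -3.33 to -3.74 on the other arrays, and median scaling without it gave 0.70, 0.70, -0.58 and -0.56.

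Single livers stood at opposite ends of these relations. Null placebo animal 1 had the highest Arntl (-0.28), Clock and Cry1 levels of all 20 livers and the lowest Nr1d1 (-1.66) and Dbp (5.39). Its Nr1d2 level (2.81) was also the highest of all 20 livers, so Nr1d2 did not go with Nr1d1 there. Null placebo animal 2 had the lowest Arntl (-1.72) and Cry1, with Nr1d1 at 0.42 and Dbp at 6.51. Wild-type placebo animal 5 had low Arntl (-1.49) with the highest Nr1d1 (0.78) and Dbp (6.72). Both null placebo animals lay on slide 1. Their label numbers were 716 and 718, and wild-type placebo animal 5 was number 2082. No wild-type placebo animal was numbered below 750, so the placebo groups were not matched in label number. Without null placebo animals 1 and 2 the r with Arntl was 0.73 for Clock, 0.53 for Cry1, -0.51 for Nr1d1 and -0.43 for Dbp.

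**Figure D3:**
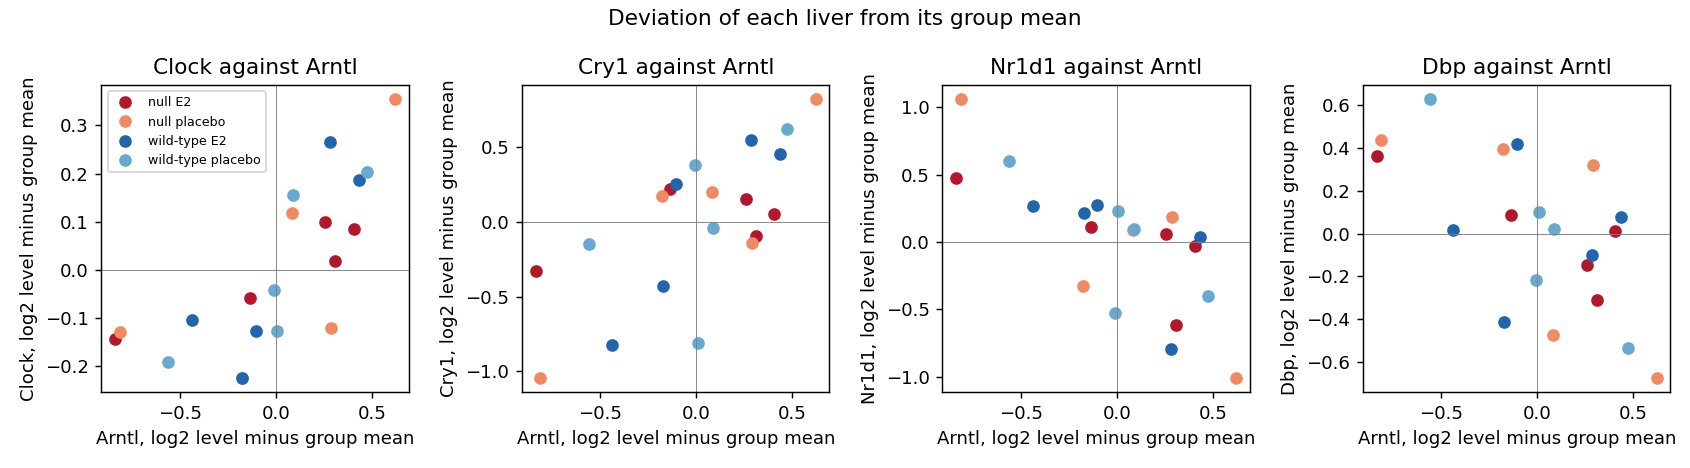
Clock, Cry1, Nr1d1 and Dbp (vertical) against Arntl (horizontal), each as the log2 level minus the mean of the liver's group, with 1 point per liver and colours for the 4 groups. Clock and Cry1 rise with Arntl and Nr1d1 and Dbp fall with it. Taking out the group means by itself puts livers of every group on both sides of 0.

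Each liver was given a summary, the mean of Arntl, Clock and Npas2 minus that of Nr1d1, Nr1d2, Dbp, Tef, Per1 and Per2. Each gene was first centred on its mean of 20 livers. Cry1 was left out of the summary because its phase lies between both sets. Group means of the summary were -0.07 ± 0.26 in null E2, -0.23 ± 0.56 in null placebo, 0.27 ± 0.23 in wild-type E2 and 0.04 ± 0.31 in wild-type placebo livers (SD, n = 5 each). Both wild-type means lay above both null means. Npas2, at the floor of the scan, moved these means. Without it, a version chosen after seeing the data, they were -0.01 ± 0.38, 0.02 ± 0.57, 0.12 ± 0.33 and -0.13 ± 0.42 for the groups as listed. There the wild-type means lay on either side of the null means. Without Npas2 the livers ran from -0.63 to 0.26 in null E2, -0.63 to 0.89 in null placebo, -0.24 to 0.53 in wild-type E2 and -0.77 to 0.39 in wild-type placebo. All 4 ranges overlapped, and each group held livers on both sides of 0. Not all genes followed their set, as r with Arntl over livers was 0.04 for Per1, 0.21 for Per2 and -0.12 for Npas2. This summary is a description with no test, it cannot be turned into hours, and it does not show that the groups were killed at the same clock time. Without Npas2, the group means lay closer together than 1 SD of any group.

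**Figure D4:**
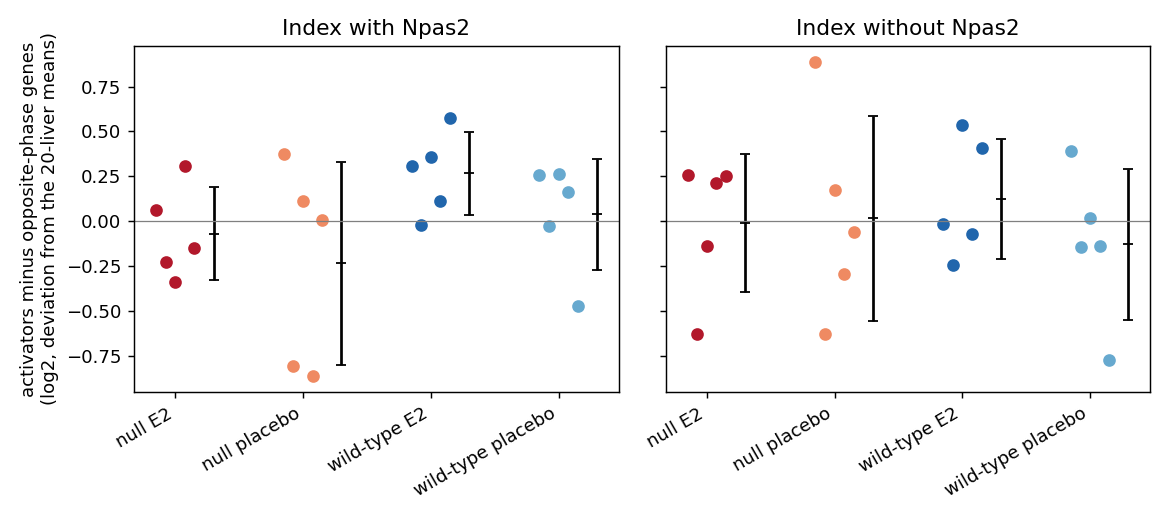
Mean centred log2 level of Arntl, Clock and Npas2 minus that of Nr1d1, Nr1d2, Dbp, Tef, Per1 and Per2 for each liver (points). Bars are the mean ± SD of 5 livers, with Npas2 on the left and without it on the right. The axis calls the subtracted genes opposite-phase, though Per1 and Per2 did not run against Arntl over livers. Without Npas2 the 4 group means lie between -0.13 and 0.12, and single livers between -0.77 and 0.89.

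Other pairs of members, compared over the same 20 livers after group means were taken out, are a description with no test. Cry1 and Nr1d1 had an r of -0.74, Clock and Nr1d1 -0.63, Dbp and Tef 0.70, Nr1d1 and Dbp 0.66, and Nr1d1 and Tef 0.59. Per1 went against Nr1d2 (-0.60) and had an r of 0.35 with Per2. Outside the members, the named genes whose deviations were most like a member's among 15215 were Lgalsl and Tmem37 for Arntl (r of 0.83 and 0.82), and Mindy3 and Fmo1 for Cry1 (0.85 and 0.82). They were Vsir and Arhgap23 for Nr1d1 (0.85 and 0.85), Dhx57 and Rnf152 for Dbp (0.92 and 0.92), Klf2 and Cacna1s for Per1 (0.85 and 0.82), and Dzip1l and Proser2 for Per2 (0.77 and 0.75). These genes were picked as the highest of 15215 values over 20 livers, and no link to the clock was tested. The most opposite gene of each of these members had an r between -0.75 and -0.92.

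The other genes of the loop also passed no test. Of 20 other clock genes 19 were measured, and with limma 0 passed in any of the 5 comparisons, with 1 to 4 at an unadjusted p under 0.05. Bhlhe41, a repressor of E-box genes, was not bright enough for the test. Ciart, whose protein represses the activator pair, was 0.57, 0.69, 0.66, 0.75 and 0.18 in null placebo animals 1 to 5, against -0.18, 0.13, -0.71, -1.43 and -0.39 in wild-type placebo animals 1 to 5. Every null placebo liver was above every wild-type placebo liver, and the difference of 1.08 (0.50 to 1.67) had a limma adjusted p of 0.186. The share of all genes with such a separation is not given here, so it does not set Ciart apart. Under E2 Ciart averaged -0.07 ± 0.43 in nulls and -0.13 ± 0.53 in wild types, a difference of 0.07 (adjusted p = 0.959). E2 minus placebo for Ciart was -0.64 in nulls (limma adjusted p = 0.818) and 0.38 in wild types (adjusted p = 0.731).

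The remaining relatives stayed closer to 0 than Ciart, except for null minus wild type under E2. There Per3, Cry2 and Nfil3 lay farther from 0 than Ciart. For Per3, the third Per gene, E2 minus placebo was 0.33 in nulls and -0.15 in wild types, and null minus wild type was 0.48 under E2 and 0.01 under placebo. For Cry2, the other Cry repressor, these values were 0.06, -0.14, 0.22 and 0.02, and for Hlf, the third factor of the Dbp family, -0.07, -0.01, 0.01 and 0.07. For Nfil3, which competes with that family at D-boxes, they were -0.02, 0.12, -0.53 and -0.39. None of these 4 genes passed in these comparisons, and the lowest limma adjusted p was 0.57.

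Of 20 liver genes known as clock outputs, 2 passed the test for E2 in wild types, where 0.318% of all genes passed. Upp2, a uridine phosphorylase gene with a daily rhythm in liver, rose by 1.08 on the log2 scale in wild-type E2 livers (0.64 to 1.51, limma adjusted p = 0.0234). Insig2, a brake on sterol synthesis, rose by 1.25 (0.69 to 1.80, adjusted p = 0.0488), and Cys1 differed by 0.51 (adjusted p = 0.554). In nulls Upp2 differed by -0.31 and Insig2 by -0.42, and the differences of the E2 effects, null minus wild type, were -1.39 and -1.67 (limma adjusted p of 0.0800 and 0.109). The call of Upp2 ended without wild-type E2 animal 1, 2 or 3 or wild-type placebo animal 3 or 4 and in 4 of 14 other settings (0.85 to 1.15 over all). That of Insig2 ended without 17 of the 20 livers in turn and in 7 of 14 other settings (1.02 to 1.49). The list as a whole had 13 of 20 genes above 0 for E2 in wild types (median 0.11) and 8 of 20 in nulls (median -0.01), and with limma 0 passed in the other 4 comparisons, with 0 to 5 at an unadjusted p under 0.05.

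Genes that answer to glucocorticoids, body temperature or feeding were counted as well. Of 14 glucocorticoid targets, Per1 among them, 1 lay above 0 for E2 in nulls (median -0.33) and 13 for E2 in wild types (median 0.31). For null against wild type 3 of 14 lay above 0 under E2 (median -0.28) and 13 of 14 under placebo (median 0.53), beside medians of all genes between -0.02 and 0.01. With limma 0 of the 14 passed in any comparison. At an unadjusted p under 0.05 there were 2 of 14 for E2 in nulls (6.06% of all genes), 4 for E2 in wild types (8.28%) and 7 for the difference of the E2 effects (7.39%), and 2 for the genotype under E2 (9.63%) and 7 under placebo (10.1%). Each comparison shares groups with others, so these counts are not independent. Of 11 genes of body temperature 0 passed with limma. At an unadjusted p under 0.05 there were 2 of 11 for E2 in nulls, 6 for E2 in wild types (4 of the 11 above 0, median -0.13), 3 for the difference, 2 for the genotype under E2 and 3 under placebo, beside the same shares of all genes. Of 16 genes of feeding and fasting 0 passed, with 2, 1, 2, 0 and 1 in the same order of comparisons. Beside the placebo difference in Per1 and Nr1d1, the red cell marker Alas2, the heme synthesis enzyme of erythroid cells, was higher in nulls by 0.90 (0.65 to 1.15, limma adjusted p = 0.00249) and Hba-a1, an alpha globin gene, by 0.39 (adjusted p = 0.350). That of Alas2 ended in 3 of 14 other settings, among them animals numbered 750 or above (0.77, adjusted p = 0.0605), and held without each of the 20 livers in turn. The part of red cells or of glucocorticoids in the values of Per1 and Nr1d1 was not tested.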

How the data were processed

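Livers of 20 mice in 4 groups of 5 were measured on 1-colour arrays, 1 array per animal, and the groups came from the genotype and treatment in the labels. Per the file headers, the authors' scanner files hold an intensity per spot from Agilent Feature Extraction 10.10.1.1, background-subtracted and detrended within the array, and probe positions on mm9. A deposited table with log2 values of 32526 probes served as an alternative, and the submitters' processing notes name limma. Each of its columns correlated at 0.9987 or more with the log2 median signal of its array and had a median near 7.85.

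A level is log2 of the processed signal less the same array's 75th percentile. A probe was kept if, in some group, 4 or more of 5 arrays had it well above background (30961 of 55681 probes), and the brightest kept probe stood for a gene, which left 21998 genes and 9 of the 10 members. Other probes of a member were tested over all kept probes. One limma fit (version 3.58.1, under R 4.3.3) of the 4 group means gave every difference and its 2-sided p (residual degrees of freedom 16, prior 2.44), adjusted by Benjamini and Hochberg's method across the genes of each comparison. Relations used 100000 permutations, 2-sided. The fit was also tested on simulated data. The number of arrays limits the precision.

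All members were named in every comparison, with Per3, Cry2, Hlf, Nfil3, Bhlhe41, Ciart and Esr1. Of other lists, up to 3 genes with the smallest adjusted p were named where a gene passed, and 2 most similar genes of 6 members. Members and lists were chosen with earlier results of these data known. Group titles share replicate numbers, which no label ties to a shared litter, cage or day, so animals were not treated as paired. Alternatives were other scalings, background corrections, filters, probe rules, slide and replicate blocks, animal numbers and leaving out each array. Promoter sequences are from RefSeq, build GRCm38.p6. Sequences of the probes, of Per2 and of the proteins are not used here.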

Additional observations from a re-analysis of the deposited data

Results flagged for a closer look

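Nr1d1 in wild-type E2 animal 3 stood far from the other 4 animals of its group. Its log2 level was -1.30, against -0.46 in the nearest animal, and that gap was 0.779 of the range of the group, above the 95% critical value of 0.71 for 5 values. Of the 40 groups of 5 examined (10 members in 4 groups) it was the 1 that passed, and chance passes about 1 in 20. The same liver was at -0.60 for Arntl and at 0.55, the highest of its group, for Clock. Without it, E2 minus placebo for Nr1d1 in wild types was -0.48 in place of -0.68, and neither value passed the test.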

How the results depend on the processing

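With limma 0 of the members tested passed in any comparison under every alternative run, with each array left out in turn too. Cry1 was not tested where a probe had to be well above background on all 20 arrays. The difference of the E2 effects was not fitted in the alternative that used only the groups of a comparison. Single changes that turned sign had a size of 0.47 at most, and none passed a test. With arrays scaled on their median, E2 in wild types gave -0.18 for Arntl, -0.15 for Clock, -0.11 for Per1 and -0.22 for Cry1 and the difference of the E2 effects gave 0.012 for Clock. With quantile scaling, E2 in wild types gave -0.47 for Cry1, E2 in nulls gave 0.0023 for Tef and the genotype under placebo gave -0.013 for Nr1d2. With normexp and quantile scaling, E2 in wild types gave -0.094 for Cry1, E2 in nulls gave 0.0060 for Tef and the genotype under placebo gave -0.038 for Nr1d2. In the authors' deposited values, E2 in wild types gave -0.075 for Cry1, E2 in nulls gave 0.0011 for Tef and the genotype under placebo gave -0.034 for Nr1d2. With the mean of kept probes, the genotype under placebo gave -0.016 for Nr1d2 and the genotype under E2 gave -0.052 for Per1, which averages in its dim second probe. With slide as a block, E2 in nulls gave 0.0069 for Tef and the genotype under E2 gave -0.0053 for Nr1d1. With slide as a random block, E2 in wild types gave -7.27e-05 for Cry1. With animals numbered 750 or above only, E2 in wild types gave -0.089 for Per1 and 0.020 for Nr1d2, E2 in nulls gave 0.18 for Clock, -0.067 for Per2 and -0.17 for Dbp, the difference of the E2 effects gave -0.017 for Arntl, -0.069 for Cry1 and -0.11 for Dbp and the genotype under placebo gave -0.067 for Nr1d2, 0.34 for Dbp and 0.094 for Tef. With animals numbered below 750 as a block, the difference of the E2 effects gave -0.14 for Arntl and -0.061 for Cry1 and the genotype under placebo gave 0.16 for Dbp and 0.043 for Tef. Without the 2 animals numbered above 2000, E2 in wild types gave -0.10 for Arntl and -0.030 for Cry1, the genotype under placebo gave -0.11 for Arntl, 0.14 for Dbp and 0.022 for Tef and the genotype under E2 gave -0.0090 for Arntl.

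Leaving out 1 array at a time, values ran for E2 in wild types -0.10 to 0.16 for Arntl, 0.0060 to 0.13 for Clock, -0.037 to 0.27 for Per1, -0.20 to 0.21 for Cry1 and -0.065 to 0.030 for Nr1d2; for E2 in nulls -0.10 to 0.32 for Arntl, -0.090 to 0.055 for Clock, 0.20 to 0.39 for Per2, -0.032 to 0.43 for Cry1, -0.066 to 0.45 for Nr1d1, 0.033 to 0.31 for Dbp and -0.085 to 0.058 for Tef; for the difference of the E2 effects -0.14 to 0.28 for Arntl, -0.16 to -0.018 for Clock, -0.039 to 0.43 for Cry1 and 0.22 to 0.53 for Dbp; for the genotype under placebo -0.13 to 0.23 for Arntl, -0.064 to 0.12 for Per2, -0.020 to 0.45 for Cry1, -0.031 to 0.048 for Nr1d2, -0.15 to 0.15 for Dbp and -0.10 to 0.047 for Tef; for the genotype under E2 -0.017 to 0.30 for Arntl, 0.21 to 0.43 for Per1 and -0.16 to 0.20 for Nr1d1; for the r with Arntl -0.021 to 0.10 for Per1, 0.057 to 0.38 for Per2, -0.70 to -0.58 for Nr1d1, -0.56 to -0.23 for Nr1d2, -0.65 to -0.49 for Dbp and -0.47 to -0.23 for Tef. The r with Arntl under median scaling was 0.24 for Per1, 0.48 for Per2, -0.34 for Nr1d1, 0.35 for Nr1d2, -0.029 for Dbp and 0.31 for Tef, and for Nr1d2 it was -0.097 under that scaling without wild-type E2 animal 1 and -0.53 without null placebo animals 1 and 2. The cause was not tested.

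Deviations of same-numbered animals correlated at -0.16 to 0.24 over 30 pairs, 12 of them above 0.1. Wild-type E2 and null E2 animals of 1 number correlated at 0.07 to 0.22. Since not every pair was above 0.1 and no label gives a pairing, the numbers were not taken as pairs, and some shared deviation may remain. With the replicate block 0 members passed in each comparison, Nr1d1 for E2 in wild types was -0.68 as without it, and over all genes limma called 0 for E2 in nulls, 90 for E2 in wild types, 35 for the difference, 92 for the genotype under E2 and 13 under placebo, against 1, 70, 36, 102 and 16 without the block. The relations without arrays, without null placebo animals 1 and 2 and under median scaling without wild-type E2 animal 1, and the summary without Npas2 or with slide means taken out, were chosen after seeing the data. The signal over background limits Npas2 and the second Per1 probe.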
